A study of Rattus norvegicus with 12 samples.

Results

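A set of 6 genes, which the deposited table lists by Ensembl identifier alone and with no gene name, was described in libraries of isolated mitochondria and of whole muscle. They are ENSRNOG00000067240, ENSRNOG00000064423, ENSRNOG00000046714, ENSRNOG00000068779, ENSRNOG00000070738 and ENSRNOG00000070284, which are 6 of the 6518 nuclear genes without a name and of 30560 genes in all. They had been picked for high counts in mitochondria and almost none in muscle, so that their difference between these groups is given as a description. A test over all genes is reported for the background it gives, and is no evidence on genes chosen by the same contrast. The picking had no numerical threshold.

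The samples were taken from the red inner portion of a calf muscle, the gastrocnemius, of wild-type male Wistar Kyoto rats aged 9 weeks. The mitochondria group holds 6 libraries of total RNA from mitochondria that were immunoprecipitated from fresh tissue and digested with RNase A and proteinase K in turn. The whole muscle group holds 6 libraries of total RNA from snap-frozen tissue of the same 6 animals, with no enzyme treatment. All libraries were depleted of ribosomal RNA and started from 10 ng of RNA for mitochondria and 50 ng for muscle, so enzyme treatment, tissue handling and RNA input differ between the groups together with the source of RNA and cannot be told apart. The study asked which RNAs encoded in the nucleus are found in muscle mitochondria.

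Mitochondria carry a small circular genome of their own, whose transcripts are made inside the organelle, and import nearly all of their proteins from the cytosol. Whether RNAs made in the nucleus also enter mitochondria is harder to measure, because a preparation of organelles can carry RNA or DNA from elsewhere in the cell. RNase A digests RNA that is accessible from outside. An identifier without a name marks a gene model that the annotation places in the genome but to which no symbol has been given. The identifier by itself says neither whether the gene encodes a protein nor what it does, and no role is assigned to these genes here. None of the 6 was matched to an entry of the RefSeq gene table used here (assembly GRCr8, 0 entries of which list an Ensembl identifier), so no position, length or sequence is printed. Since no length is at hand, values of different genes are compared as shares of reads and not as transcript abundance. How reads shared with near-identical copies or with genes on the opposite strand were counted is not stated in the labels.

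The mitochondria libraries held 720111 to 1785865 counts and the muscle libraries 24309444 to 32055355. The mitochondrial genome took 12.9% to 51.5% of counts in mitochondria libraries and 26.4% to 35.9% in muscle libraries. Values are therefore given both as CPM, counts scaled to a fixed total of all gene counts in a library, and as nuclear CPM, scaled in the same way to the counts on nuclear genes alone. These are shares of a bulk library, in which more RNA of a gene and less RNA of other genes cannot be told apart, nor can fewer cells of a type and less RNA per cell. Markers of skeletal muscle fibres (7 of 7 listed genes, detected in both groups) summed to 3239 ± 904 nuclear CPM in mitochondria and 243474 ± 24809 in muscle (SD, n = 6 each).

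ENSRNOG00000067240 took more reads than any other nuclear gene in each of the 6 mitochondria libraries. Its counts ran over 3779, 5558 and 6651 (lowest, median and highest of 6) in mitochondria libraries. They were 3, 12 and 18 in the muscle libraries, whose total gene counts were far higher. As nuclear CPM, the lowest, median and highest values were 6126, 6443 and 7042 in mitochondria, against 0.193, 0.558 and 1.03 in muscle. By mean nuclear CPM its rank among nuclear genes was 1 in mitochondria and 13318 in muscle. Summed over the libraries of a group, its CPM was 10207 times as high in mitochondria (95% exact interval 8063 to 13122, which like the other intervals covers counting error alone). It was the one gene of the 6 with a count in all 6 muscle libraries.

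ENSRNOG00000064423 was second by mean nuclear CPM, and ranked 3 in mitochondria replicate 2, where Ttn, which encodes the giant sarcomere protein titin, also lay above it. Its lowest, median and highest nuclear CPM were 3203, 3290 and 3420 in mitochondria, against 0, 0.144 and 0.362 in muscle, with counts in 5 of 6 muscle libraries. The groups lay far apart: it had 16479 counts in mitochondria and 21 in muscle, a ratio by CPM of 17065 (95% exact interval 11160 to 27576). Together, ENSRNOG00000067240 and ENSRNOG00000064423 held 80.5% of the summed counts of the 6 genes in mitochondria.

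ENSRNOG00000046714, ENSRNOG00000068779 and ENSRNOG00000070738 formed a middle group, with mean ranks of 14, 16 and 25 among nuclear genes in mitochondria. ENSRNOG00000046714 had a lowest, median and highest nuclear CPM of 834, 862 and 897 in mitochondria, against 0, 0 and 0.0573 in muscle, where its 2 counts fell in 2 libraries. ENSRNOG00000068779 had 632, 691 and 780 in mitochondria, against 0, 0 and 0.0483 in muscle, where its single count fell in replicate 3. ENSRNOG00000070738 had 474, 519 and 571 in mitochondria and no count in any muscle library, which allows up to 0.0176 CPM over the group at a floor of 3 counts. Of the 10014 nuclear genes without a muscle count, ENSRNOG00000070738 had the highest mean CPM in mitochondria. With 0 to 2 muscle counts each, the muscle level of these genes is set by single reads.

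ENSRNOG00000070284 took the fewest reads of the 6 in mitochondria, and its rank among nuclear genes there moved between 32 and 242 from library to library. Its lowest, median and highest nuclear CPM were 182, 273 and 428 in mitochondria, against 0, 0.0226 and 0.172 in muscle. It had 1470 counts in mitochondria and 5 in muscle, of which 3 fell in muscle replicate 6, and a ratio by CPM of 6394 (95% exact interval 2734 to 19720). The intervals of the 5 ratios overlapped between neighbours in this order, and that of ENSRNOG00000068779, which rests on 1 muscle count, reached from 13496 to 2972840.

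**Figure D1:**
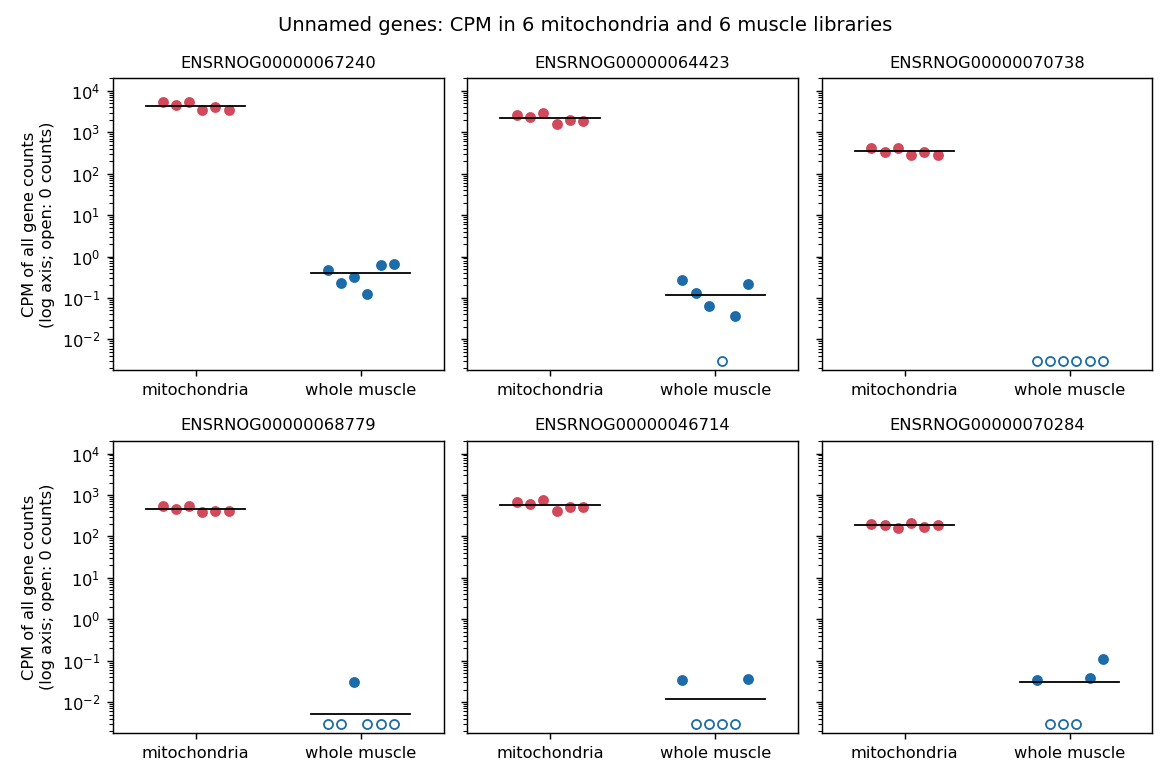
CPM of each gene (log axis) in 6 mitochondria libraries on the left and 6 whole muscle libraries on the right of each panel; points are libraries, lines are group means and open points stand for 0 counts. The lowest value in a mitochondria library is 159 CPM and the highest in a muscle library is 0.666 CPM; a mean is drawn where it is above 0.

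For each of the 6 genes, every mitochondria library lay above every muscle library, as they did for 69.6% of the 29900 genes with a count. edgeR's quasi-likelihood test called 6 of 6 higher in mitochondria, where it called 63.0% of the 24679 genes tested higher and 30.3% lower. The genes were chosen by this contrast, so nothing is read from these counts. The background itself depends on the scaling: 15544 genes were higher and 7470 lower with TMM, against 20795 higher and 2228 lower with total counts and 19614 higher and 1071 lower relative to mitochondrial genome counts. The median log2 fold change of all genes was 2.51 with TMM and 4.61 with total counts. All 6 genes were higher under each of these scalings.

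The 6 genes were not the whole of the set with such values. In all, 42 nuclear genes had a mean of at least 186 CPM in mitochondria and at most 0.406 CPM in muscle, the lowest and highest means of the 6, and 32 of these had no name. Of the 26 unnamed genes that were not picked, 9 lay between ENSRNOG00000064423 and ENSRNOG00000046714 by mean CPM in mitochondria. The next unnamed gene, ENSRNOG00000066888, had 1333 ± 329 CPM in mitochondria and 0.106 ± 0.120 in muscle (SD, n = 6 each), and just below the lowest of the 6 the next had a mean of 178 CPM in mitochondria. The second of those not picked, ENSRNOG00000068307, was of another kind, with 1172 ± 569 CPM in mitochondria and 2216 ± 1629 in muscle. The other 4 of the 6 most abundant unpicked genes ran from 997 to 1075 CPM in mitochondria, with 10 to 27 counts over all muscle libraries.

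**Figure D2:**
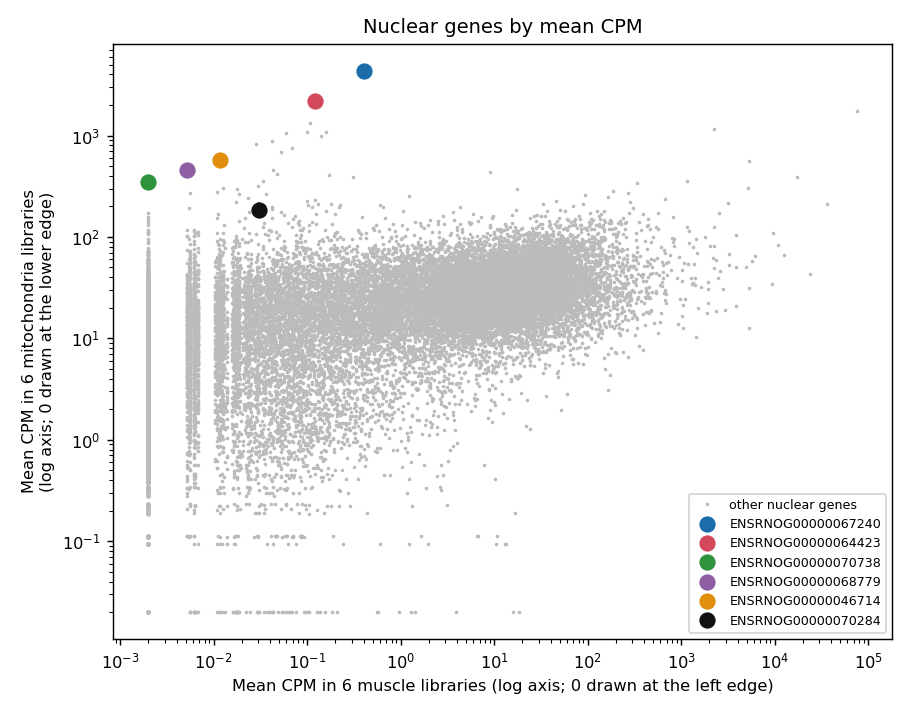
Mean CPM in 6 mitochondria libraries (vertical, log axis) against mean CPM in 6 whole muscle libraries (horizontal, log axis) for nuclear genes, with the 6 unnamed genes as large points. All 6 lie at the upper left, at or above 186 CPM in mitochondria and at or below 0.406 CPM in muscle, among other genes with like values.

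Summed, the 6 genes took 1.22% ± 0.0518 of nuclear counts in mitochondria (SD, n = 6), with 1.17% in the lowest library and 1.30% in the highest. In muscle they had 98 counts in all, 0.836 ± 0.495 nuclear CPM. They made up 9.42% of the counts on unnamed nuclear genes in mitochondria. A set of genes with little known use in muscle moved in the same direction. The 1260 olfactory and vomeronasal receptor genes, which detect odours and pheromones, summed to 16775 ± 591 nuclear CPM in mitochondria and 11.6 ± 1.69 in muscle. The ratio of these means was 1441 for the receptors and 14549 for the 6 genes, which were chosen for a high ratio.

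Lists of markers for other cells of the tissue did not all move one way. In mitochondria and in muscle, the summed nuclear CPM was 420 ± 37.9 and 72.1 ± 13.1 for 5 of 5 macrophage and leukocyte markers, and 102 ± 15.4 and 14.7 ± 2.23 for 3 of 3 satellite cell markers. It was 140 ± 9.40 and 2.36 ± 2.36 for 4 of 4 adipocyte markers, 358 ± 18.9 and 561 ± 132 for 5 of 5 endothelial markers, and 112 ± 14.2 and 116 ± 49.4 for 4 of 4 Schwann cell markers. Red blood cell markers, of which 2 of 4 were in the table, had 60.6 ± 8.43 and 94.1 ± 45.1 (SD, n = 6 for each). No marker found in the table was at 0 over a whole group. The part of these cells in the levels of the 6 genes was not tested.

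The make-up of the summed counts was close to constant among mitochondria libraries. ENSRNOG00000067240 held 51.9% to 54.4% of the 6 genes' counts in a mitochondria library and ENSRNOG00000064423 held 25.6% to 28.7%, while ENSRNOG00000070284 varied from 1.56% to 3.30%. Over all libraries of a group, ENSRNOG00000067240 held 53.4% of the 6 genes' counts in mitochondria (95% Wilson interval 53.0 to 53.8) and 70.4% in muscle (60.7 to 78.5). ENSRNOG00000064423 held 27.2% in mitochondria (26.8 to 27.5) and 21.4% in muscle (14.5 to 30.5). ENSRNOG00000046714, ENSRNOG00000068779 and ENSRNOG00000070738 held 7.10%, 5.70% and 4.27% in mitochondria, against 2.04%, 1.02% and 0% in muscle. ENSRNOG00000070284 held 2.42% in mitochondria (2.30 to 2.55) and 5.10% in muscle (2.20 to 11.4). The muscle values rest on 98 counts in all. For ENSRNOG00000070738 the intervals were 4.11 to 4.44 in mitochondria and 0 to 3.77 in muscle. The intervals cover counting error alone. In single muscle libraries, ENSRNOG00000067240 held 58.3% to 100% of the 6 genes' counts, so no difference between the groups is read from the intervals. These shares are from the contrast that chose the genes and were not tested.

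**Figure D3:**
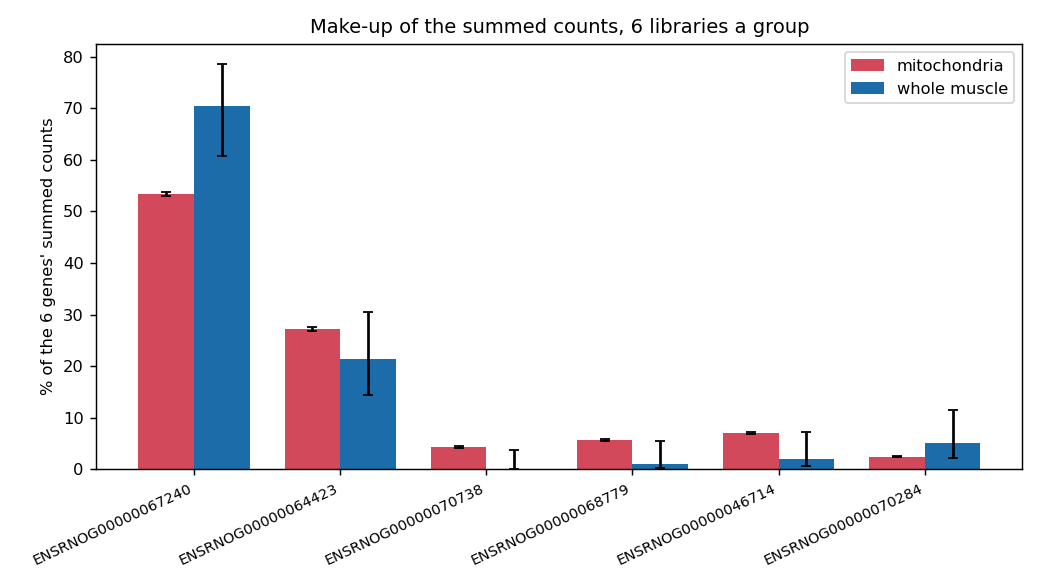
Share of the 6 genes' summed counts held by each gene (vertical, percent), over 6 mitochondria libraries (left bar of each pair) and 6 whole muscle libraries (right bar), with 95% Wilson intervals that cover counting error alone. ENSRNOG00000067240 holds 53.4% of 60695 counts in mitochondria and 70.4% of 98 counts in muscle.

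In muscle, the few reads were spread unevenly. The 6 genes together had 24, 11, 13, 3, 19 and 28 counts in muscle replicates 1 to 6. For ENSRNOG00000067240 the coefficient of variation (CV, the SD divided by the mean) of nuclear CPM over muscle libraries was 54.1%, against 29.8% from counting error alone, and for ENSRNOG00000064423 it was 87.2% against 54.9%. Over the 6 muscle libraries the summed nuclear CPM of the genes, 0.193 to 1.60, was set against that of the receptor genes, 10.1 to 14.6. Pearson's r was 0.600 (two-sided exact permutation test, p = 0.224) and Spearman's rho 0.429 (exact permutation p = 0.419). Without the 2 libraries farthest from the median of the receptors, r was 0.0399. With so few counts, no relation was detectable.

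The stated rule for the 6 genes used their level in mitochondria and not how it varied among the mitochondria libraries. The genes and the tests were still chosen with earlier results of these data known. As nuclear CPM, 5 of the 6 were nearly constant. The CV over 6 mitochondria libraries was 2.37% for ENSRNOG00000064423, 3.17% for ENSRNOG00000046714, 5.65% for ENSRNOG00000067240, 7.36% for ENSRNOG00000070738 and 7.51% for ENSRNOG00000068779. Counting error alone would give 1.94%, 3.80%, 1.38%, 4.88% and 4.24% in the same order, so that the spread was above that of counting for 4 of the 5 and below it for ENSRNOG00000046714. ENSRNOG00000070284 stood apart, with a CV of 28.9% against 6.53% from counting error. Of the 1324 nuclear genes with at least 100 nuclear CPM in mitochondria, whose median CV was 10.6%, 5 had a CV at least as high as ENSRNOG00000070284, itself included. These 1324 genes were not matched to the 6 by level, and counting error gives a larger CV at lower levels. Among the 26 unpicked unnamed genes in the range of the 6, the CV ran from 2.96% to 15.6% with a median of 6.83%.

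**Figure D4:**
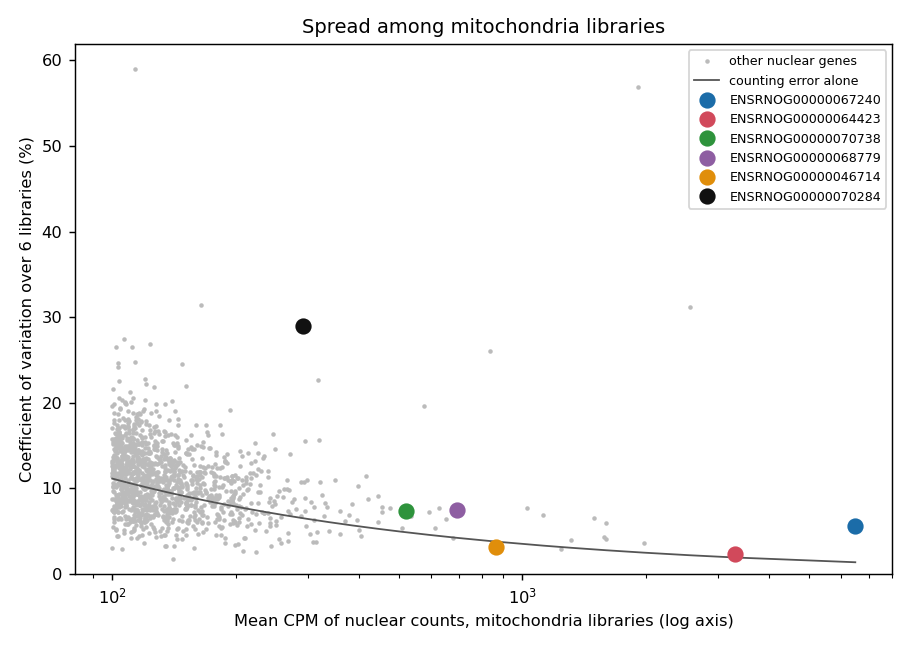
Coefficient of variation of nuclear CPM over 6 mitochondria libraries (vertical, percent) against mean nuclear CPM (horizontal, log axis) for nuclear genes with at least 100 nuclear CPM, with the 6 unnamed genes as large points and the spread from counting error as a line. ENSRNOG00000070284 lies at 28.9%, and the other 5 genes lie between 2.37% and 7.51%.

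The order turned round when counts were scaled to all genes. The CV of CPM was then 10.3% for ENSRNOG00000070284 and 16.2% to 22.2% for the other 5. ENSRNOG00000070284 had 201, 185, 159, 208, 168 and 194 CPM in mitochondria replicates 1 to 6. In contrast, ENSRNOG00000064423 had 2552, 2322, 2917, 1609, 2010 and 1840 CPM in the same libraries and was lowest in replicate 4, which had the highest share of mitochondrial genome counts. Per count on the receptor genes, a scaling chosen after seeing the data, the CV was 29.2% for ENSRNOG00000070284 and 4.03% to 7.97% for the others.

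As nuclear CPM, ENSRNOG00000070284 was higher in libraries with a higher mitochondrial genome share. Its value was 182 in the mitochondria library with a share of 12.9%, 253 at 20.3%, 260 at 28.9%, 286 at 41.2%, 342 at 43.4% and 428 at 51.5%. The order of the 6 libraries was thus the same by both measures, and the highest value was 2.35 times the lowest. Set against the other 5 genes, ENSRNOG00000070284 had 1.59% of their summed counts in the library with the lowest share and 3.41% in that with the highest. Pearson's r was 0.930 (two-sided exact permutation test over all pairings, n = 6, p = 0.00417, adjusted p = 0.05 over 12 relations) and Spearman's rho was 1 (exact permutation p = 0.00278, the smallest that 6 libraries can give, adjusted p = 0.0333). The adjusted p of r did not fall below 0.05. It was 0.0833 per receptor count (r = 0.913), 0.341 for CPM of all gene counts (r = 0.488) and 0.100 to 0.500 with single mitochondria libraries left out (r = 0.880 to 0.976, exact permutation tests). With 5 libraries there are fewer pairings, so the smallest p that can be reached is higher than with 6. Without replicates 3 and 4, the libraries farthest from the median share, r was 0.845 over 4 libraries.

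A fit over all nuclear genes was added after seeing the data. In edgeR's quasi-likelihood test of the slope on the mitochondrial genome share, over the 6 mitochondria libraries, ENSRNOG00000070284 rose by 0.27 ± 0.04 on the log2 scale per 10 percentage points of share (SE, edgeR adjusted p = 1.31e-08). It was called with any mitochondria library left out, with slopes from 0.23 to 0.30 and edgeR adjusted p from 3.03e-09 to 0.0357. This fit called 5 of 16875 genes higher with the share, or 0.0296%, and 1 lower, and 806 genes had an unadjusted p under 0.05. Of the 6 genes called, 4 had no name, ENSRNOG00000070284 among them. Of the 26 unpicked unnamed genes in the range of the 6, none was called by this fit in either direction, and their r with the share ran from -0.733 to 0.687. Whether ENSRNOG00000070284 differs from them in slope was not tested.

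The share could not be told apart from the total gene counts of a library. Over the 6 mitochondria libraries, the mitochondrial genome share and the total counts were themselves related (r = 0.898, exact permutation p = 0.0125, rho = 0.886, exact permutation p = 0.0333). Against total counts, ENSRNOG00000070284 had r = 0.790 (exact permutation p = 0.0556, adjusted p = 0.222) and rho = 0.886 (exact permutation p = 0.0333, adjusted p = 0.133), with r = 0.914 without replicates 1 and 3. A slope on total counts in edgeR was 0.86 ± 0.15 on the log2 scale per 1000000 counts (SE, edgeR adjusted p = 9.16e-06), and that fit called 8 genes in all.

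As nuclear CPM, no relation with the share passed for the other 5 genes. As CPM of all gene counts, whose denominator holds the mitochondrial genome counts, their r ran from -0.994 to -0.954 (exact permutation adjusted p = 0.00333 for each). A gene that is steady as nuclear CPM must fall with the share on that scale, so nothing is read from these values. As nuclear CPM, ENSRNOG00000068779 came nearest, with r = 0.874 (exact permutation p = 0.0208, adjusted p = 0.125) and rho = 0.943 (exact permutation p = 0.0167, adjusted p = 0.100). Its r was 0.634 without replicates 3 and 4, and its slope in edgeR was 0.07 ± 0.04 on the log2 scale per 10 points. ENSRNOG00000067240 and ENSRNOG00000070738 had r = 0.588 and 0.591 with rho = 0.600 each (exact permutation p = 0.214 and 0.208 for r and 0.242 for rho, adjusted p = 0.428 for both r and 0.483 for both rho). Without replicates 3 and 4 their r was -0.161 and 0.143. ENSRNOG00000064423 and ENSRNOG00000046714 had r = 0.190 and 0.00953 with rho = 0.0286 and -0.0857 (exact permutation p = 0.718 and 0.988 for r and 1 and 0.919 for rho). Without those libraries their r was 0.609 and 0.917 over 4 libraries. The slopes of these 4 genes lay between 0.001 and 0.045 on the log2 scale per 10 points, with SE from 0.036 to 0.040, and edgeR's adjusted p was 0.999 for each of the 5.

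**Figure D5:**
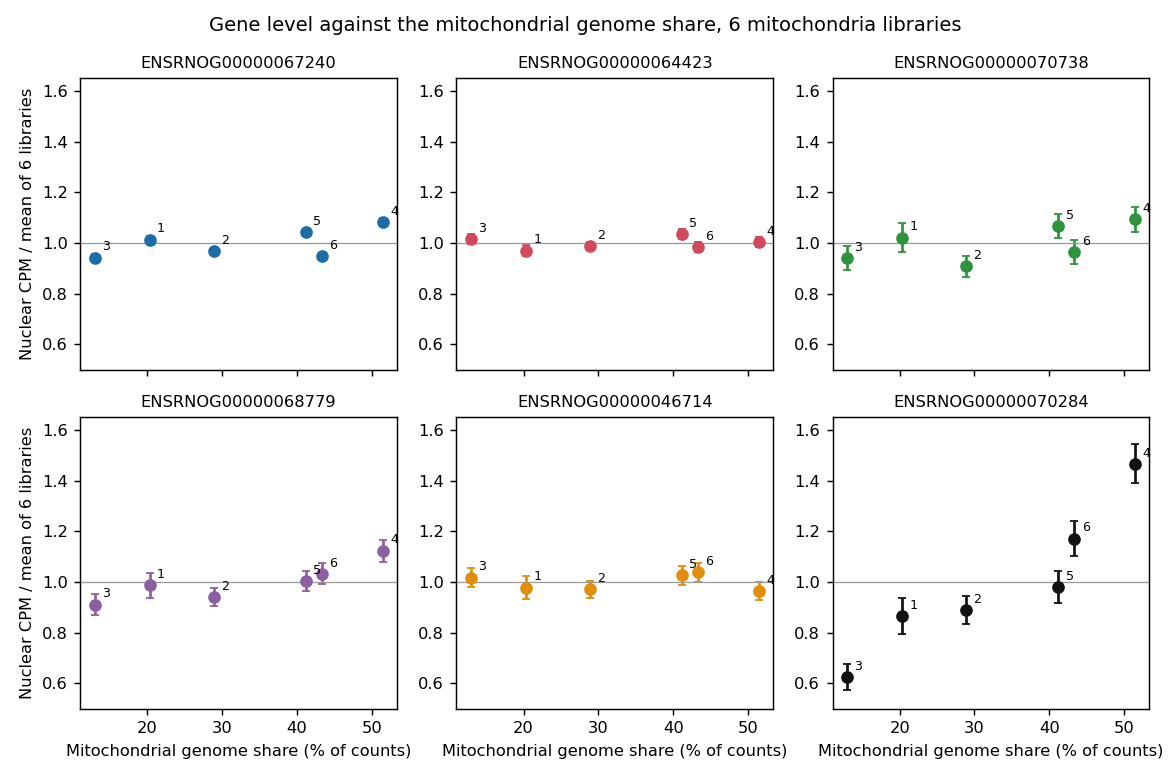
Nuclear CPM of each gene divided by its mean over 6 mitochondria libraries (vertical) against the share of mitochondrial genome counts (horizontal, percent). Points are libraries with their replicate number. Bars are the counting error, the square root of the count put on the scale of the vertical axis. ENSRNOG00000070284 climbs over the libraries from 182 to 428 nuclear CPM, while the highest value of each other gene is at most 1.23 times its lowest.

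Among themselves, the genes were compared in 15 pairs over the 6 mitochondria libraries, as nuclear CPM alone. The pairs were not tested as CPM of all gene counts. As nuclear CPM, ENSRNOG00000068779 and ENSRNOG00000070284 varied together, with r = 0.968 (exact permutation p = 0.00278, adjusted p = 0.0417 over 15 pairs). Their rho = 0.943 did not pass (exact permutation p = 0.0167, adjusted p = 0.250), and r was 0.805 without the 2 libraries farthest from the median. Both genes also had a high r with the mitochondrial genome share, 0.874 and 0.930. Whether the pair is related apart from the share was not tested. ENSRNOG00000067240 and ENSRNOG00000070738 had r = 0.915 (exact permutation p = 0.0181, adjusted p = 0.135) and rho = 0.829 (exact permutation p = 0.0583, adjusted p = 0.438), with r = 0.659 without 2 libraries. Apart from ENSRNOG00000068779 with ENSRNOG00000070284 by r, no pair passed by r or rho. The ratio of ENSRNOG00000067240 to ENSRNOG00000064423 counts ran from 1.83 to 2.12 (1.97 ± 0.108, SD, n = 6), and that of ENSRNOG00000064423 to ENSRNOG00000046714 from 3.62 to 3.97 (3.82 ± 0.119). The ratio of ENSRNOG00000046714 to ENSRNOG00000070284 ran from 1.95 to 4.82 (3.18 ± 0.955). The CV of the ratio was 22.6% to 30.0% for the 5 pairs with ENSRNOG00000070284 and 3.11% to 8.89% for the other 10.

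The genes whose profile over the 6 mitochondria libraries was most like each of these were looked up among 1318 nuclear genes with at least 100 nuclear CPM there, by Pearson's r of log2(nuclear CPM + 1). With 6 libraries and the best of 1318 genes taken, a high r can arise without any relation. It is given as a description, and what unrelated genes would reach was not worked out. The most alike were Iqsec1 for ENSRNOG00000067240 (r = 0.982), Map3k20 for ENSRNOG00000064423 (r = 0.991) and Palldl1 for ENSRNOG00000070284 (r = 0.985). Iqsec1 encodes an exchange factor for ARF GTPases and Map3k20 a stress-activated kinase. For ENSRNOG00000068779 it was Col13a1, a transmembrane collagen of the neuromuscular junction (r = 0.954). For ENSRNOG00000046714 it was the unnamed gene ENSRNOG00000066582 (r = 0.977). For ENSRNOG00000070738 it was a different unnamed gene, ENSRNOG00000068016 (r = 0.980), which is among the most abundant unpicked genes described above. Next in likeness to ENSRNOG00000070284 was Trpm2, a calcium-permeable cation channel (r = 0.972). One unnamed gene, ENSRNOG00000066454, ranked 3 for both ENSRNOG00000068779 (r = 0.924) and ENSRNOG00000070284 (r = 0.956). Mean CPM in muscle differed widely among these genes. Map3k20 had 428, Palldl1 had 201 and Iqsec1 had 91.7. Lower were ENSRNOG00000066582 with 3.87, Col13a1 with 2.58, Trpm2 with 1.06, ENSRNOG00000068016 with 0.142 and ENSRNOG00000066454 with 0.0237.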

How the data were processed

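The authors deposited a table of raw read counts per gene for 12 libraries, 6 of mitochondria and 6 of whole muscle. The build was mRatBN7.2, and the tools were STAR 2.7.11a, HTSeq, cutadapt 4.6 and FastQC 0.74, per the submitters' processing notes. Not stated there are the strand setting, the handling of reads with several matches and the release of the annotation. Groups and replicate numbers came from the titles.

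Genes named Mt- or AY172581 (37) were taken as the mitochondrial genome and all others as nuclear. Both groups were fitted over all genes with edgeR 4.0.16 in R 4.3.3 (glmQLFit, glmQLFTest, no term beside group, TMM, filterByExpr at a minimum count of 10, Benjamini-Hochberg at 0.05); DESeq2 1.42.0 was an alternative. Relations over 6 libraries used two-sided exact permutation tests over 720 pairings. Ratios with no muscle count use a floor of 3 counts over the group. The fits were tested on simulated data.

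The 6 genes, the marker lists and the tests were chosen with earlier results of these data known. Besides the 6 genes, the text names the most abundant unnamed genes not picked and those most alike in profile; of these, part are given as ranges for room, and Ttn was named after its values were seen.

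Mitochondria and muscle of a replicate number carry the same animal number in the labels. The correlation of their deviations from the group means lay between -0.0075 and 0.0201. The animal was a block in an alternative fit.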

Additional observations from a re-analysis of the deposited data

Results flagged for a closer look

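In 12 groups of 6 libraries, Dixon's test picked out single libraries in 2, both in muscle. ENSRNOG00000068779 had its single count in muscle replicate 3, at 0.0312 CPM and 0.0483 nuclear CPM, and 0 in the other 5 muscle libraries. ENSRNOG00000070284 had 3 counts in muscle replicate 6, at 0.111 CPM and 0.172 nuclear CPM, against 0 to 0.0376 CPM in the others. These values rest on 1 and 3 reads, and a gene with a single count in 6 libraries is always picked out, so the rate of about 1 group in 20 that chance gives does not apply to them.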

How the results depend on the processing

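All 6 genes were called higher in mitochondria under every fit run. They were chosen by this contrast, so nothing is read from these calls. The fits used RLE size factors, total counts, mitochondrial genome counts, nuclear genes alone and DESeq2. Further fits used no filter, a fold of at least 2, each library left out and the replicate block. Of 24679 genes tested, the replicate block gave 15511 higher and 7427 lower. DESeq2 called 20538 of 29900 genes higher, and total counts 20795 of 24679. The count of genes called lower was 2228 with total counts and 1071 with mitochondrial genome counts as library size. Leaving out single libraries gave 11478 to 16363 genes higher, the low end without a muscle library, where fewer genes passed the filter.

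In mitochondria libraries, the summed counts of the 6 genes were 0.810% ± 0.157 of all gene counts and 3.35% ± 2.55 of mitochondrial genome counts. As a scaling chosen after seeing the data, they were 72.6% ± 2.94 of receptor gene counts (SD, n = 6 for each). As nuclear CPM, the means in mitochondria were 6498 (ENSRNOG00000067240), 3301 (ENSRNOG00000064423), 864 (ENSRNOG00000046714), 694 (ENSRNOG00000068779), 522 (ENSRNOG00000070738) and 292 (ENSRNOG00000070284).

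With CPM of all gene counts, whose denominator holds the mitochondrial genome, r with its share was -0.977, -0.994, -0.991, -0.980 and -0.954 for the first 5 of these (exact permutation adjusted p = 0.00333 for each) and 0.488 for ENSRNOG00000070284 (exact permutation adjusted p = 0.341). The negative values follow from the denominator for genes that are steady as nuclear CPM. Per receptor count, r with the share was -0.110 for ENSRNOG00000064423 and -0.144 for ENSRNOG00000046714. With single libraries left out, r ran from -0.0949 to 0.563 for ENSRNOG00000064423 and from -0.263 to 0.495 for ENSRNOG00000046714, where the cause was not tested, and from 0.880 to 0.976 for ENSRNOG00000070284, for which 5 libraries gave adjusted p of 0.100 to 0.500. In edgeR its slope of 0.27 per 10 points passed. The muscle levels are limited by low counts, as they rest on 0 to 69 counts a gene.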
